A study of Mus musculus with 8 samples.

Results

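Gm10800, Gm10801, Gm10715, Gm10717, Gm10718, Gm10719, Gm10720, Gm10721 and Gm10722 are 9 mouse gene models whose sequence is made of satellite-like tandem repeats. They were chosen by that sequence and selected on their estimated reads, which were abundant in some of the tumors studied here, out of 35419 genes with a symbol, so their levels are given as a description and not as evidence of why they stand out. RNA was sequenced from 8 subcutaneous tumors of mouse neuroblastoma, grown from 1000000 injected cells of the line Neuro-2a (N2A) in female A/J mice bought at 4 weeks of age. In 4 of these tumors (numbered 1 to 4) the mice had received 10 mg/kg of SR59230A, which blocks the β3-adrenergic receptor, into the peritoneum, and in the other 4 (numbered 0 to 3) the mice had received vehicle, which the labels also call mock. All tumors came from one unmodified injected line, so they model a transplanted neuroblastoma and not one that arose in the mouse. The labels number the tumors without saying that each came from a different mouse, and they do not say how long each mouse was treated. The p-values below therefore measure only the spread between these samples.

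Satellite DNA consists of short units repeated head to tail, and in the mouse the major satellite forms the pericentromeric heterochromatin beside the centromere of most chromosomes. This chromatin carries histone H3 methylated at lysine 9, binds heterochromatin protein 1 and has methylated DNA, which together keep it largely silent. Satellite RNA is known to appear in some stressed cells and in some tumors, and RNA of this kind can form double strands that the innate RNA sensors recognise. The genome holds many more copies of such repeats than the few that fell into annotated gene models, so a read counted for 1 of these models may come from a copy elsewhere, and these sources cannot be told apart here.

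The 9 models lie in 2 clusters. In the GENCODE annotation of GRCm38, Gm10801 (chr2:98662237-98664083, plus strand) and Gm10800 (chr2:98666547-98667301, minus strand) lie on opposite strands of chromosome 2. The other 7 lie on the plus strand near the start of chromosome 9, in the order Gm10722 (chr9:3000922-3002330), Gm10721 (chr9:3013140-3014344), Gm10720 (chr9:3015654-3017210), Gm10719 (chr9:3017408-3021593), Gm10718 (chr9:3023547-3025218), Gm10717 (chr9:3025417-3033289) and Gm10715 (chr9:3036877-3038316). The deposited files themselves carry no coordinates. All 9 are annotated as protein-coding, although their sequence is repetitive, and together they have 20 transcripts of 504 to 684 bases, of which Gm10717 holds 9, Gm10719 holds 3, Gm10715 holds 2 and each other model 1.

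The transcript sequences show what the models share. The longest word found in all 20 transcripts was the following 30-base motif, which was searched on both strands of every other transcript of the annotation.

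motif: CAGTGTGCATTTCTCATTTTTCACGTTTTT

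Each transcript held 1 to 3 copies of the motif, against 9 of 141747 transcripts outside the 9 models (0.00635%), which belonged to the genes Gm11168, Gm17535, Gm21738 and Gm26870. A match describes the sequence and is no binding site. The next 5 lines give 234 bases of the best-covered transcript of each of the 5 models with most reads, 5′ to 3′ along the transcript on its annotated strand, each starting at a copy of the motif, with motif copies in capitals. They are shown because reads that fall in such stretches cannot be placed on 1 model with certainty. The stretch covers bases 167 to 400 of ENSMUST00000099683 (Gm10800, minus strand), 5 to 238 of ENSMUST00000099684 (Gm10801, plus strand), 167 to 400 of ENSMUST00000099046 (Gm10718, plus strand), 401 to 634 of ENSMUST00000099047 (Gm10719, plus strand) and 167 to 400 of ENSMUST00000143083 (Gm10721, plus strand), all in GRCm38.
Gm10800: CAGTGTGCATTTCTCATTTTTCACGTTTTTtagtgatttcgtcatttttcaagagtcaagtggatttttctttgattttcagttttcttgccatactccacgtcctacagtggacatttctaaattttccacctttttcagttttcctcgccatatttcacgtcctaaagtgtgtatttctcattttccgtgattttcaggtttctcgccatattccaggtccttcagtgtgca
Gm10801: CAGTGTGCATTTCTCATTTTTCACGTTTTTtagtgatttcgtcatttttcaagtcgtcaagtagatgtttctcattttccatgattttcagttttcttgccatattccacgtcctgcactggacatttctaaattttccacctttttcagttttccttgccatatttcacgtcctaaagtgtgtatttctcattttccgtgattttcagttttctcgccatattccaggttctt
Gm10718: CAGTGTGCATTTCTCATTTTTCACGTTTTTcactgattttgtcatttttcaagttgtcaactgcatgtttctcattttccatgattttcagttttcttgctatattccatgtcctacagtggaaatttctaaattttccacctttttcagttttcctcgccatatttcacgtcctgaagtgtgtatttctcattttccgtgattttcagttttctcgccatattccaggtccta
Gm10719: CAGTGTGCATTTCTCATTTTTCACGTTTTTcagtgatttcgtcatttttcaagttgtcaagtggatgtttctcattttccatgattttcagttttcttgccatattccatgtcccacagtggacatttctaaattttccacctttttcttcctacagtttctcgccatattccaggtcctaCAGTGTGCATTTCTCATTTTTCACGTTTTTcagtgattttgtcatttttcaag
Gm10721: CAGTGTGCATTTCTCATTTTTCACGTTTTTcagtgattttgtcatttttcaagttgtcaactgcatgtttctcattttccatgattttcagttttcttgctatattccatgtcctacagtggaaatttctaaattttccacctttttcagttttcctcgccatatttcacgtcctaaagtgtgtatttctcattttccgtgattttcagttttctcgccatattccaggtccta

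Words of 12 bases came back within a transcript most often at a spacing of 234 bases in 15 of the 20 transcripts, at 237 bases in 3, at 231 bases in Gm10801 and at 225 bases in Gm10800, so that repeated words were found in every model. The transcripts were rich in T (45.8 to 48.6% of bases) and poor in G and C (34.2 to 36.0%). Between 36.2% (Gm10801) and 94.4% (Gm10720) of the 31-base words of a transcript occurred in a transcript of another of the 9 models, with a median of 69.1%. Outside the 9, 4 genes held any of these words. Gm11168, Gm17535 and Gm21738 held them in the same direction, and Gm26870, a long noncoding RNA on the opposite strand of the chromosome 9 cluster, held them only as the reverse complement. Gm21738 and Gm26870 were not analysed here. The alignment of the best-covered transcript of each model gave 92.2% identical bases between Gm10801 and Gm10715 and 98.8% between Gm10718 and Gm10721, as the plot of pairwise identity shows.

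**Figure D1:**
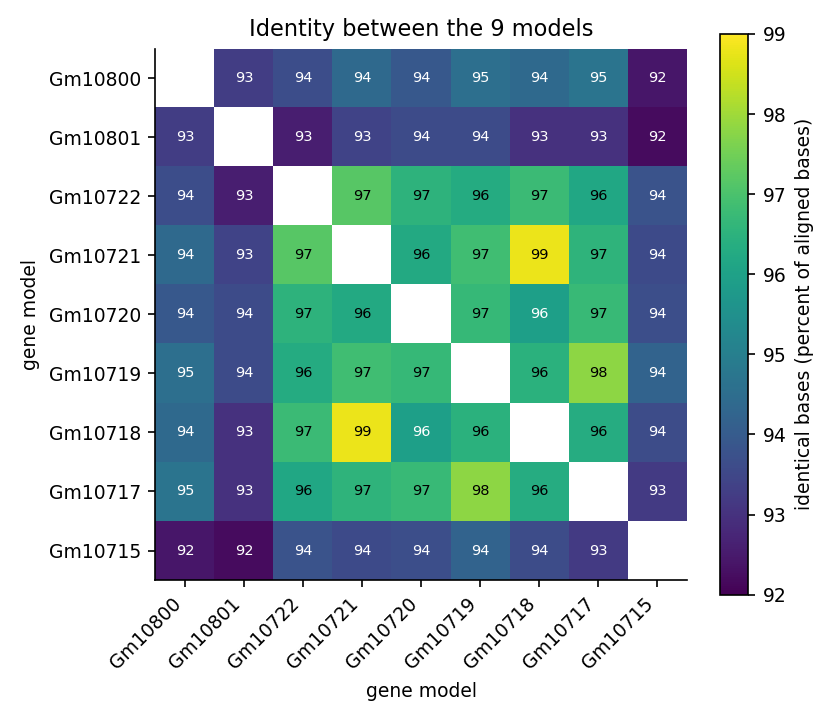
Percent of aligned bases that were identical between each pair of the 9 gene models (the transcript with most reads per model, gaps left out), coloured from 92 to 99%. Gm10718 and Gm10721 are the most alike at 98.8%, and the models of chromosome 2 (Gm10800, Gm10801) and Gm10715 stand furthest from the others.

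The libraries held 23484190 to 43675495 estimated reads in the SR59230A tumors and 28614914 to 44045575 in the vehicle tumors. All 8 listed neuroblastoma markers were detected in every tumor, with sums of 409 to 641 reads per 1000000 reads (RPM) in the SR59230A tumors and of 541 to 845 in the vehicle tumors, as the tumor label would have it. Skeletal muscle markers summed to 2165 and 184 RPM in SR59230A tumors 1 and 2 and to between 0.385 and 18.4 in the other 6 tumors.

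The 9 models together took from under 0.01% to over 10% of all reads, depending on the tumor. Their share was 0.288, 0.00552, 0.717 and 6.46% in SR59230A tumors 1 to 4, against 11.9, 0.111, 0.0129 and 8.69% in vehicle tumors 0 to 3. Vehicle tumors 0 and 3 and SR59230A tumor 4 were the highest and SR59230A tumor 2 and vehicle tumor 2 the lowest, so that the groups overlapped over almost their whole range. The mean was 1.87 ± 3.08% in the SR59230A tumors and 5.17 ± 6.04% in the vehicle tumors (SD, n = 4 each), with an SD larger than the mean in both. Vehicle tumor 0 exceeded vehicle tumor 2 by 919-fold and SR59230A tumor 4 exceeded SR59230A tumor 2 by 1171-fold, both within 1 treatment. Counting error is far smaller than these differences. The 95% Clopper-Pearson interval was 0.00530 to 0.00574% in SR59230A tumor 2 (2410 reads) and 11.8 to 11.9% in vehicle tumor 0 (3394051 reads), and such intervals cover counting error only, since the libraries carried no molecular identifiers.

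**Figure D2:**
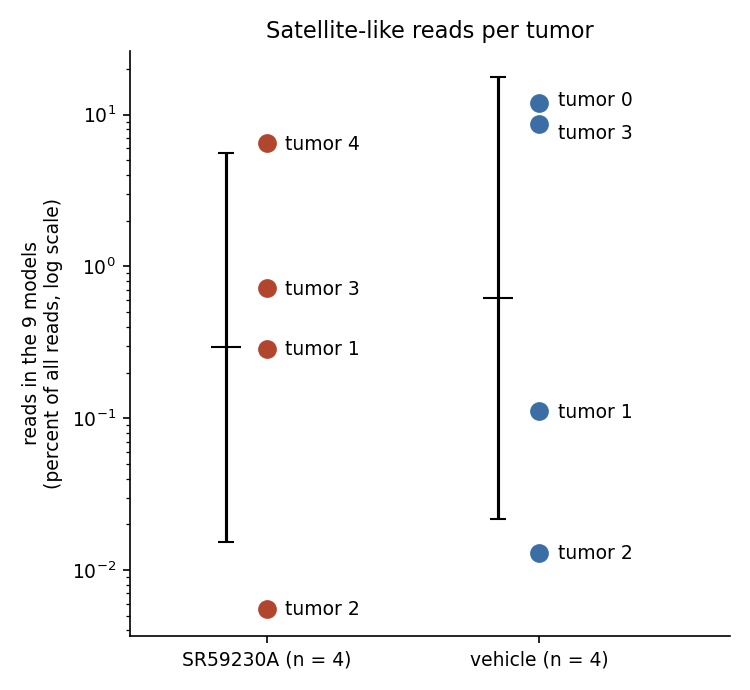
Percent of all reads assigned to the 9 models in each tumor, on a log scale, with 1 point per tumor and its number, and beside each group the mean and SD of the log10 percent (n = 4 each). The SR59230A tumors run from 0.00552 to 6.46% and the vehicle tumors from 0.0129 to 11.9%, and both groups hold high and low tumors.

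Gm10800 was the most read of the 9 models in every tumor. It had 1503, 16.0, 3719 and 34283 RPM in SR59230A tumors 1 to 4, against 63582, 581, 58.6 and 46867 in vehicle tumors 0 to 3. In vehicle tumors 0 and 3 only 1 gene had more reads than Gm10800 and in SR59230A tumor 4 only 2 did, whereas it ranked 37 and 18 in SR59230A tumors 1 and 3, 154 in vehicle tumor 1, 3707 in vehicle tumor 2 and 8216 in SR59230A tumor 2. Gm10801, the shortest of the models and its neighbour on chromosome 2, had 288, 3.67, 750 and 6700 RPM in SR59230A tumors 1 to 4, against 12329, 115, 12.7 and 8955 in vehicle tumors 0 to 3. The order of the tumors was that of Gm10800.

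The most read models of the chromosome 9 cluster followed the same order of tumors. Gm10718 had 390, 9.80, 974 and 7944 RPM in SR59230A tumors 1 to 4, against 15212, 154, 20.2 and 10296 in vehicle tumors 0 to 3. Gm10719 had 321, 12.1, 800 and 7156 in SR59230A tumors 1 to 4, against 12413, 124, 15.6 and 9397 in vehicle tumors 0 to 3. Gm10721 had 196, 8.97, 507 and 4587 in SR59230A tumors 1 to 4, against 8001, 71.1, 12.6 and 6100 in vehicle tumors 0 to 3. In each of these models vehicle tumor 0 was the highest, SR59230A tumor 2 the lowest, and the groups overlapped.

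Gm10717, whose reads were spread over 9 transcripts, ran from 3.64 to 2583 RPM in the SR59230A tumors and from 5.79 to 4510 in the vehicle tumors. In the 6 tumors other than SR59230A tumor 2 and vehicle tumor 2, ENSMUST00000075573 took 31.3 to 33.6% of its reads and ENSMUST00000099042 took 21.8 to 28.0%. The 3 least read models were Gm10722, Gm10720 and Gm10715. Gm10722 ran from 0.158 to 620 RPM in the SR59230A tumors and from 1.12 to 1123 in the vehicle tumors, Gm10720 from 0.663 to 454 in the SR59230A tumors and from 1.53 to 952 in the vehicle tumors, and Gm10715 from 0.218 to 294 in the SR59230A tumors and from 0.913 to 490 in the vehicle tumors. In SR59230A tumor 2 Gm10722 rested on 6.91 estimated reads, so its value there is the least certain of all.

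**Figure D3:**
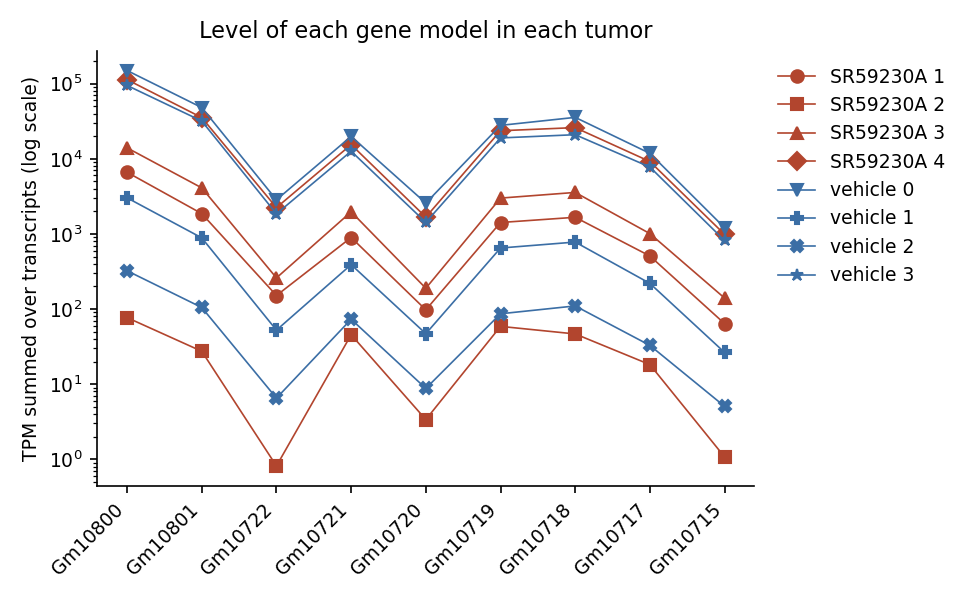
TPM (log scale), summed over the transcripts of each of the 9 models, with 1 line per tumor, SR59230A tumors in red and vehicle tumors in blue. The lines of 6 tumors run nearly in parallel, while SR59230A tumor 2 and, less so, vehicle tumor 2 fall off at Gm10800 relative to the models of chromosome 9.

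The share was also lower in the tumors numbered 1 and 2 than in the other tumors. These values helped to choose the models and are therefore not tested. In the 4 tumors numbered 1 and 2, the share of reads in the 9 models was 0.288 and 0.00552% with SR59230A and 0.111 and 0.0129% with vehicle. In the 4 tumors numbered 0, 3 and 4 it was 0.717 and 6.46% with SR59230A (tumors 3 and 4) and 11.9 and 8.69% with vehicle (tumors 0 and 3). These sets of tumors did not overlap, and their mean log2 percent differed by 6.91, higher in the tumors numbered 0, 3 and 4. Among the tumors numbered 1 and 2 the highest share exceeded the lowest by 52.2-fold, and among those numbered 0, 3 and 4 by 16.5-fold. The nearest values of these sets were 0.288% in SR59230A tumor 1 and 0.717% in SR59230A tumor 3. The tumors numbered 3 themselves lay at 0.717% with SR59230A and 8.69% with vehicle. The labels do not say what a number marks and do not divide the tumors into these sets.

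The split of the reads between the 9 models was nearly constant in 6 of the 8 tumors. Gm10800 took 52.2, 28.9, 51.9 and 53.1% of their reads in SR59230A tumors 1 to 4, against 53.6, 52.4, 45.4 and 53.9% in vehicle tumors 0 to 3. SR59230A tumor 2 and vehicle tumor 2, the tumors with fewest satellite-like reads, had the lowest shares of Gm10800. Its 95% Clopper-Pearson interval was 27.2 to 30.8% in SR59230A tumor 2 and 43.9 to 47.0% in vehicle tumor 2. The share was 51.9 to 53.9% in the other 6 tumors. These intervals treat the estimated reads as counted reads. They leave out the error of dividing reads between similar models, which was not tested. Over all 8 tumors the mean share of Gm10800 was 48.9 ± 8.52% (SD). In the same 6 tumors Gm10718 took 11.9 to 13.9%, Gm10719 10.5 to 11.2%, Gm10801 10.0 to 10.5%, Gm10721 6.42 to 7.10%, Gm10717 3.63 to 4.00%, Gm10722 0.850 to 1.13%, Gm10720 0.688 to 0.802% and Gm10715 0.414 to 0.516%. These shares rest on how Salmon, the program that estimated the reads, divided reads that match several models, and are estimates.

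**Figure D4:**
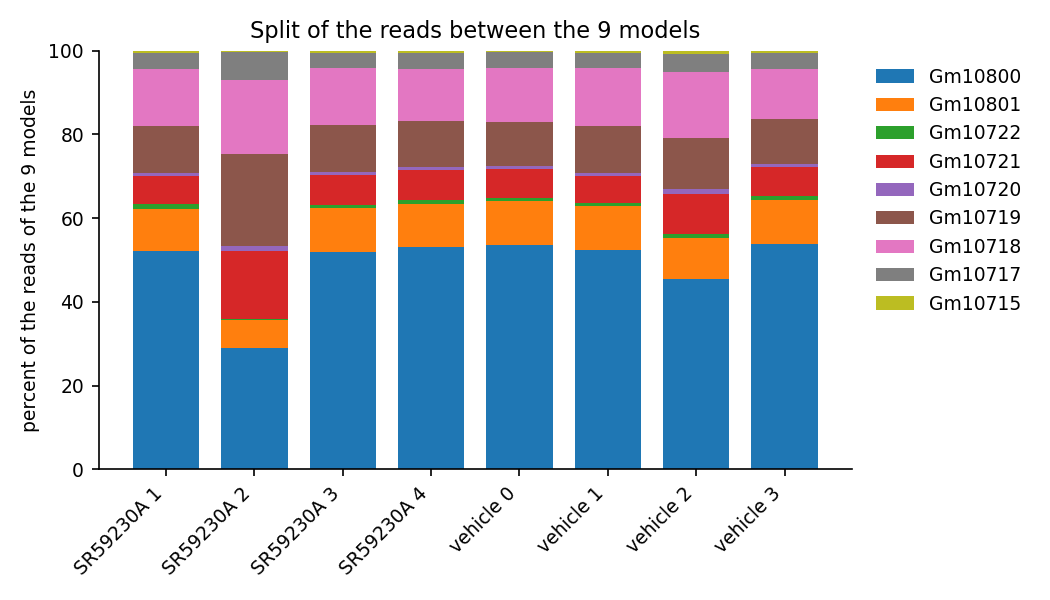
Percent of the reads of the 9 models that fell on each model, stacked to 100% for each tumor, SR59230A tumors on the left. Gm10800 holds 51.9 to 53.9% in 6 tumors, 28.9% in SR59230A tumor 2 and 45.4% in vehicle tumor 2, where Gm10719, Gm10718 and Gm10721 hold more.

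In SR59230A tumor 2, 5 models of chromosome 9 held a larger part of the reads. There Gm10719 took 21.9%, Gm10718 17.8%, Gm10721 16.3%, Gm10717 6.60% and Gm10720 1.20% of the reads of the 9 models, each above its range in the 6 tumors with a nearly constant split, while both models of chromosome 2 (Gm10800 and Gm10801), Gm10722 (0.287%) and Gm10715 (0.396%) were below theirs. In vehicle tumor 2 the same 5 models were above their ranges, with 12.1% on Gm10719, 15.7% on Gm10718, 9.76% on Gm10721, 4.49% on Gm10717 and 1.19% on Gm10720, and Gm10800 and Gm10801 (9.87%) were again below theirs. Gm10715 went the other way there (0.707%, above its range), and Gm10722 (0.867%) was within its range. In TPM (transcripts per 1000000 transcripts), which corrects for length, the level of Gm10719 was 0.764 of that of Gm10800 in SR59230A tumor 2 and 0.268 in vehicle tumor 2, against 0.186 to 0.215 in the other 6. Gm10801, whose TPM was 0.281 to 0.356 of that of Gm10800 over all 8 tumors, kept closer to it. Across the 8 tumors the log2 RPM of any pair of the 9 models had a Pearson correlation of at least 0.985, the lowest being that of Gm10721 and Gm10722. The points share libraries and near-identical sequence, so the correlation is a description.

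The TPM of these models depends on a length correction that differed between tumors. Salmon gave the 660-base Gm10800 transcript an effective length of 340, 346, 366 and 396 bases in SR59230A tumors 1 to 4, against 557, 308, 287 and 556 bases in vehicle tumors 0 to 3. The highest values were in vehicle tumors 0 and 3, which also held most satellite-like reads. Over 9864 other transcripts of 600 to 700 bases the median effective length was 494 to 500 in every tumor. In 6924 transcripts over 5000 bases the median difference between length and effective length was 161 to 163 bases in the SR59230A tumors, against 36.6 bases in vehicle tumor 0 and 159 to 162 bases in vehicle tumors 1 to 3, so vehicle tumor 0 stood apart in the length correction of other transcripts. Summed TPM of the 9 models was accordingly 13278, 279, 28210 and 227556 in SR59230A tumors 1 to 4, against 299294, 6071, 751 and 190758 in vehicle tumors 0 to 3. On this scale SR59230A tumor 4 lay above vehicle tumor 3, whereas by reads it lay below, and the order of the other tumors did not differ between both scales.

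None of the 9 models differed between SR59230A and vehicle tumors beyond the spread between tumors. The log2 fold changes, SR59230A over vehicle, lay between -1.54 (Gm10720) and -1.32 (Gm10715). Each had an adjusted p of 0.996 by edgeR's quasi-likelihood test with Benjamini-Hochberg adjustment over all genes. Approximate standard errors, taken as the size of the log2 fold change over the square root of the test's F, were 1.84 to 2.00. At the thresholds used here (adjusted p under 0.05, log2 fold change of 0.5 or more in either direction), edgeR called 0 of the 9 models and 0 of 15193 genes tested (0%), with 0 of the 9 and 704 of all genes at an unadjusted p under 0.05. DESeq2 called 0 of the 9 and 17 of 15160 genes (0.112%), and limma-voom called no gene. With the tumor set (numbers 1 and 2, against 0, 3 and 4) as a block, the log2 fold changes shrank to between -0.32 (Gm10720) and -0.0094 (Gm10722), again with 0 of the 9 called by edgeR (lowest adjusted p = 0.967). All 9 models passed the filter on low counts. In none of the 9 were the groups without overlap, against 397 of 15193 genes (2.61%). In bulk tumors, fewer cells of a type and less RNA per cell cannot be told apart.

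The 9 models summed gave the same picture as a single value per tumor. The log2 of their CPM (counts per 1000000, scaled by TMM) averaged 11.54 ± 4.38 in the SR59230A tumors and 12.59 ± 4.95 in the vehicle tumors (SD, n = 4 each), a difference of -1.06 (two-sided exact permutation test over 70 assignments, p = 0.8, smallest possible 0.0286). Its sign rested on single tumors. Left out in turn, SR59230A tumor 2 turned the difference to 0.90, vehicle tumor 0 to 0.39 and vehicle tumor 3 to 0.26. In the tumors numbered 1 and 2 alone it was 0.06 and in those numbered 0, 3 and 4 alone -2.18 (two-sided exact permutation tests over 6 assignments, p = 1 and 0.333), sets of 4 tumors that cannot reach a p under 0.05. A p that misses the threshold does not show that the treatments act alike. The approximate standard errors of 1.84 to 2.00 on the log2 scale leave wide room on either side of the fold changes of the single models.

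Genes whose proteins bind, modify or silence pericentromeric repeats gave no call between treatments by edgeR. Of 36 listed heterochromatin and DNA methylation genes, 35 were tested (Tasor is the newer name of Fam208a), 0 were called and 20 had a log2 fold change above 0, with a median of 0.01 against -0.00 over all genes tested. The smallest unadjusted p in the list was that of Cenpb, which encodes a centromere protein that binds satellite DNA, at 35.4 ± 4.82 CPM in the SR59230A tumors and 43.9 ± 6.08 CPM in the vehicle tumors (SD, n = 4 each; log2 fold change -0.31, edgeR adjusted p = 0.996). Next came Morc2a, a chromatin ATPase of the silencing machinery, at 116 ± 7.41 and 101 ± 9.11 CPM in the SR59230A and vehicle tumors (log2 fold change 0.19), and Cenpa, the centromeric histone H3 variant, at 37.8 ± 6.62 and 30.2 ± 6.68 CPM in the SR59230A and vehicle tumors (log2 fold change 0.32). Neither passed the test (edgeR adjusted p = 0.996 each).

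The genes that sense double-stranded RNA gave no call either. Of 22 listed genes 20 were tested (Rigi is the newer name of Ddx58, and Ifit3 had too few reads), 0 were called and 11 had a log2 fold change above 0, with a median of 0.07. The smallest unadjusted p belonged to Oas1a, an enzyme that makes the activator of the RNA-degrading enzyme RNase L, at 9.59 ± 2.16 CPM in the SR59230A tumors and 7.44 ± 1.40 CPM in the vehicle tumors (SD, n = 4 each; log2 fold change 0.36). Ifih1, the sensor of long double-stranded RNA also known as MDA5, had 3.47 ± 0.761 CPM in the SR59230A tumors and 2.61 ± 1.54 CPM in the vehicle tumors (log2 fold change 0.41), and Oas2, of the same enzyme family as Oas1a, had 1.09 ± 0.370 and 0.763 ± 0.566 CPM in the SR59230A and vehicle tumors (log2 fold change 0.54). Each had an edgeR adjusted p of 0.996. The sizes for Ifih1 and Oas2 rested on single tumors. The log2 fold change of Ifih1 was 0.91 without vehicle tumor 3 and 0.25 without vehicle tumor 2 or without SR59230A tumor 3. That of Oas2 was 1.15 without vehicle tumor 3 and 0.26 without vehicle tumor 2, and it turned to -0.31 in the tumors numbered 0, 3 and 4 only. Without vehicle tumors 0 and 3 and SR59230A tumor 4, which hold most satellite-like reads, both lists and all 15559 genes tested gave 0 calls. The medians were -0.04 for the heterochromatin list and 0.15 for the RNA sensing list, against 0.02 over all genes. By edgeR, 4 of 20 RNA sensing genes, 2 of 35 heterochromatin genes and 1122 of all genes had an unadjusted p under 0.05. A log2 fold change above 0 was found in 16 of the 20 and 13 of the 35. Ifih1 had 0.91 and Oas2 1.68. This setting set SR59230A tumors 1 to 3 against vehicle tumors 1 and 2. Leaving out vehicle tumor 3 alone also gave 4 of 20 RNA sensing genes under that p and 16 of 20 above 0. Of all genes, 1323 of 15411 were then under that p. Leaving out vehicle tumor 0 alone gave 0 of 21 RNA sensing genes under it, and SR59230A tumor 4 alone 1 of 20. A link of these genes to the satellite-like reads was not tested.

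Of 4 genes measured within 100 kb of the 9 models, the 2 that share their sequence followed them closely. Gm11168, which lies inside the chromosome 9 cluster (chr9:3003346-3006948) and shares its words, had 3077, 101, 5471 and 72956 estimated reads in SR59230A tumors 1 to 4, against 110157, 1556, 132 and 85735 in vehicle tumors 0 to 3. Gm17535, between Gm10717 and Gm10715 (chr9:3034599-3035805), had 536, 20.1, 1054 and 10387 estimated reads in SR59230A tumors 1 to 4, against 19400, 307, 16.5 and 11558 in vehicle tumors 0 to 3. Scaled to CPM, both had the order of the 9 models summed, with Gm17535 at 0.425 CPM in SR59230A tumor 2 and 0.483 CPM in vehicle tumor 2, whereas by estimated reads these tumors stood in the opposite order. Gm13806 and Gm32390, processed pseudogenes that share no 31-base word with the models, had at most 1 read in any tumor.

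Of 15184 other genes that passed the filter, Gm11168 (Pearson r = 0.9996) and Gm17535 (0.997) had the log2 CPM most like that of the 9 models summed over the 8 tumors. Next came Ccdc173, a coiled-coil protein gene (0.979), the gene models Gm5403 (0.976), Gm7609 (0.968) and AC157214.1 (0.967), the olfactory receptor gene Olfr678 (0.969), Xkrx (0.967), the axonemal dynein gene Dnah10 (0.966) and Nat8f3 (0.965). These 8 genes had at most 23.9 CPM in any tumor (AC157214.1 in vehicle tumor 3), and Olfr678 had 0.327, 0, 0.341 and 0.927 CPM in SR59230A tumors 1 to 4, against 2.76, 0.184, 0 and 4.56 CPM in vehicle tumors 0 to 3. In all, 178 genes had an r over 0.9 and 117 an r under -0.9. These correlations rest on 8 tumors that share libraries and depth, and carry no p.

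Some other features of the libraries moved in part with the satellite-like reads. Olfactory and vomeronasal receptor genes, which are expressed in sensory neurons of the nose, took 0.325, 0.167, 0.477 and 0.301% of reads in SR59230A tumors 1 to 4, against 0.346, 0.176, 0.146 and 0.644% in vehicle tumors 0 to 3. Mitochondrially encoded genes took 3.61, 1.54, 7.47 and 3.16% in SR59230A tumors 1 to 4, against 3.10, 1.39, 1.30 and 6.11% in vehicle tumors 0 to 3. Retained intron transcripts ran from 2.48 to 4.20% in the SR59230A tumors and from 2.56 to 3.76% in the vehicle tumors, and pseudogene transcripts from 4.77 to 8.83% in the SR59230A tumors and from 4.33 to 7.99% in the vehicle tumors. In these 4 features the same 5 tumors lay above the same 3. The 5 were SR59230A tumors 1, 3 and 4 and vehicle tumors 0 and 3. The 3 were SR59230A tumor 2 and vehicle tumors 1 and 2. The 5 also had higher shares of the 9 models than the 3, but this cut was set by where the features divide. It fell between SR59230A tumor 1 (0.288%) and vehicle tumor 1 (0.111%). Among the 5 the order differed, since SR59230A tumor 3 and vehicle tumor 3 led these features and vehicle tumor 0 led the 9 models. Long noncoding RNA transcripts, not plotted, did not divide the tumors in this way. They took 2.78, 2.36, 3.44 and 2.66% in SR59230A tumors 1 to 4, against 2.37, 2.58, 2.52 and 3.15% in vehicle tumors 0 to 3. Nor did the number of genes with at least 1 read, which was 19988 in SR59230A tumor 3 and 20910 in vehicle tumor 1. The part of these features in the level of the 9 models was not tested.

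**Figure D5:**
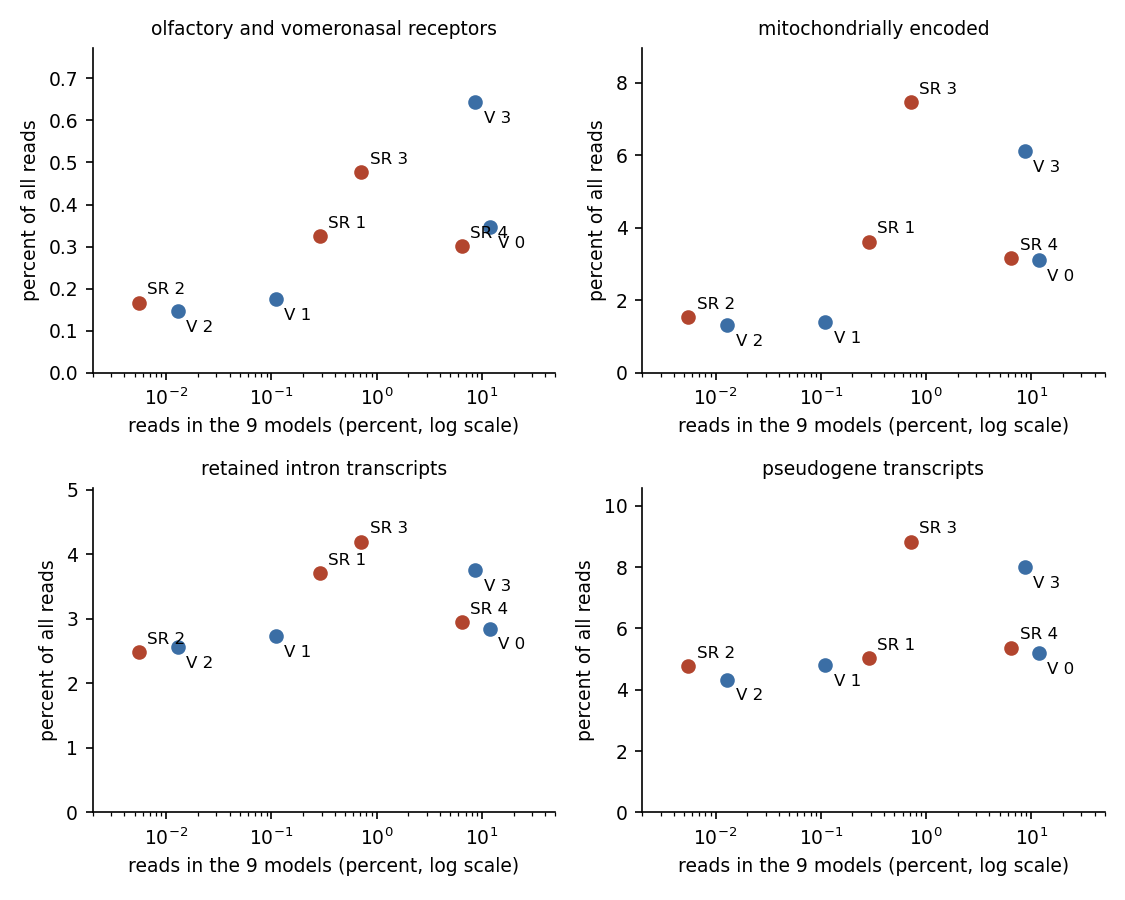
Percent of all reads in 4 other classes of genes or transcripts against the percent in the 9 models (log scale), with 1 point per tumor (SR, SR59230A, red; V, vehicle, blue). In every panel SR59230A tumor 2 and vehicle tumors 1 and 2 lie lowest, and SR59230A tumor 3 and vehicle tumor 3 lie highest.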

How the data were processed

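Total RNA of 8 tumors was sequenced after a stranded library kit with ribosomal RNA removal. The authors ran Salmon, and the deposited file of each tumor gives estimated counts, TPM and effective lengths for 116747 transcripts. A GRCm38 transcriptome is named in the methods, but GRCm39 in the submitters' processing notes, and no version of Salmon or DESeq2 is given in those notes. All 20 transcripts of the 9 models carry a version 1 above GENCODE M21 and have the same length there, so coordinates and sequences were taken from that annotation. The deposited table of normalized counts, with 8 columns of per-sample values, was not used here, since it holds 0 of the 9 models.

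Estimated counts were summed to genes (115685 transcripts, 99.1%, matched by identifier without version), and were rounded. edgeR 4.0.16 (R 4.3.3) was run with TMM factors, filterByExpr and the quasi-likelihood test. Calls had an adjusted p under 0.05 with a log2 fold change of 0.5 or more in either direction. Alternatives were DESeq2 1.42.0, limma 3.58.1 (voom), other scaling and filters, length offsets, TPM with pseudocounts of 1 and 0.1, blocks, subsets of tumors and leaving out each tumor. RPM are reads per 1000000 estimated reads, and CPM uses TMM library sizes. The test was checked on simulated counts that had the same small spread for every gene. That check does not cover a spread between tumors as wide as that of the 9 models. Genes named are the 9 models, genes within 100 kb, the 3 genes of each list with the smallest p and the 10 genes most correlated with the sum. The members and lists were chosen with earlier results of these data known.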

Additional observations from a re-analysis of the deposited data

Results flagged for a closer look

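A tumor was set apart when its gap to the nearest other tumor of its group took up more of the range of the group than the 95% critical value of Dixon's test for 4 samples. Chance flags about 1 in 20 groups. Such a tumor was found in 20 of 58 groups, but 10 of these 20, in 20 of the 58 groups, are levels of the 9 models, which served to choose the models, so they are a description and count as no evidence. Of the other 38 groups 10 held such a tumor. Of those 10, 8 are shares of the same reads, which sum to 100% and depend on each other. They come from the reads that served to choose the models, so they too count as no evidence.

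As a description only, SR59230A tumor 4 stood above the other SR59230A tumors in the share of all reads of the 9 models summed (6.46%) and of each model, with 3.43% for Gm10800, 0.794% for Gm10718, 0.716% for Gm10719, 0.670% for Gm10801, 0.459% for Gm10721, 0.258% for Gm10717, 0.0620% for Gm10722, 0.0454% for Gm10720 and 0.0294% for Gm10715.

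SR59230A tumor 2 stood apart in the split of reads between the models, with 28.9% for Gm10800 and 6.65% for Gm10801 below the other SR59230A tumors, and 21.9% for Gm10719, 16.3% for Gm10721, 6.60% for Gm10717 and 1.20% for Gm10720 above them. Vehicle tumor 2 stood apart in the same measure for Gm10801 (9.87%, below the other vehicle tumors) and Gm10715 (0.707%, above them). These are the tumors with fewest satellite-like reads, and their flags are a description only.

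Vehicle tumor 3 stood above the other vehicle tumors in Ifih1 (4.90 CPM). SR59230A tumor 3 stood above the other SR59230A tumors in reads of pseudogene transcripts (8.83%).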

How the results depend on the processing

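The 9 models gave 0 calls under each of 19 alternatives, and both gene lists gave 0 calls under each of 20. Leaving out vehicle tumors 0 and 3 and SR59230A tumor 4, picked by these same reads, was not counted for the 9 models. There all 9 log2 fold changes were above 0, with a median of 2.71, and 0 were called. The difference in the log2 CPM of the 9 models summed (-1.06) kept its sign under 14 alternatives, from -2.94 to -0.86, and turned in 4. In the tumors numbered 1 and 2 only, an alternative chosen after seeing the data, it was 0.064, and leaving out each tumor in turn it ran from -2.94 to 0.90, with 0.90 without SR59230A tumor 2, 0.39 without vehicle tumor 0 and 0.26 without vehicle tumor 3. In the tumors numbered 1 and 2 only, the edgeR log2 fold changes of all 9 models were also above 0, at 1.24 for Gm10800, 1.17 for Gm10801, 1.26 for Gm10715, 1.31 for Gm10717, 1.18 for Gm10718, 1.24 for Gm10719, 1.11 for Gm10720, 1.27 for Gm10721 and 1.60 for Gm10722 (lowest edgeR adjusted p = 0.774). Oas2 turned to -0.31 in the tumors numbered 0, 3 and 4 only. These turns have fewer tumors, and their cause was not tested beyond that. Leaving out 1 tumor moved the log2 fold changes of the 9 models between -4.06 and -0.61, length offsets moved their median to -0.95 from -1.42, and the tumor set as a block moved it to -0.13, with single values from -0.32 to -0.0094. With each tumor left out, the log2 fold change ran from 0.25 to 0.91 for Ifih1, 0.26 to 1.15 for Oas2, 0.24 to 0.50 for Oas1a, 0.21 to 0.47 for Cenpa, 0.16 to 0.26 for Morc2a and -0.40 to -0.24 for Cenpb. The share of Gm10800 in the reads of the 9 models ran from 46.1 to 54.4% over 11 alternatives, 48.2 to 51.8% when each tumor was left out, and the log2 difference by tumor number from 5.97 to 7.88 over 10.

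With the tumor number as a replicate block the summed level differed by -1.14 over the 3 pairs (exact sign-flip test, p = 0.75), and the median log2 fold change of the 9 models was -1.19, with 0 of the 9 and 2 genes called in all. The numbers were not taken to pair the tumors, since the labels do not say what a number marks. Correlations between the deviations of the tumors from their group means did not settle this. Like numbers gave 0.0095 (tumors numbered 1), 0.592 (tumors numbered 2) and 0.50 (tumors numbered 3). Unlike numbers ran from -0.675 (SR59230A tumor 2 with vehicle tumor 3) to 0.598 (SR59230A tumor 2 with vehicle tumor 1). The next highest unlike pair gave 0.027 (SR59230A tumor 1 with vehicle tumor 3). The deposited normalized counts were not run as an alternative, since they hold 0 of the 9 models. Precision is limited by 4 tumors per group, not by depth, except for the least read models in SR59230A tumor 2 and vehicle tumor 2.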
